A study of Mus musculus with 47 samples.

Results

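H3K4me1, monomethylation of lysine 4 of histone H3, was compared between male and female floxed control mouse liver. The members are the H3K4me1 peaks on chromosomes 1 to 19 of the control male list (68838 peaks) and of the control female list (54181 peaks), 123019 in all, out of 498569 peaks and regions in the 12 lists of the series. A peak was called shared if it overlapped a peak of the other list by at least 1 bp, and male-only or female-only if it overlapped none. Both groups were floxed control mice (Ezh2 f/f), 7 weeks old, with 4 livers per sex. The antibody amount was 1.2 µg for 15 µg of chromatin. The series also holds E1/E2-KO livers (Ezh1-/-, Ezh2 f/f, AC+, in which Alb-Cre removes Ezh2 in hepatocytes and Ezh1 is missing from all cells), and lists for H3K27ac and H3K27me3. These served here as further readouts at the control H3K4me1 peaks.

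The reads of the 4 livers of a group were joined before peaks were called, so each sex gave a single list. From these lists no difference between the sexes could therefore be tested against the spread between livers, and no p-value is given. The paper did compare the individual livers of each sex for this mark, and those results were not used here. The lists hold positions and no score, and the depth behind them is unknown. A region without a peak in a list may still carry the mark below the calling threshold. The 95% intervals given (Wilson) reflect counting error alone, with each peak taken as independent of its neighbours. Liver is a mixture of cells, so that fewer cells of a type and less of the mark per cell cannot be told apart.

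H3K4me1 marks enhancers, the distal elements that raise transcription of genes in their neighbourhood, and the flanks of promoters. Enhancers that carry it without H3K27ac are regarded as primed, and those with both marks as active. Many liver genes differ in expression between male and female rodents, and STAT5B, a transcription factor activated by growth hormone, is needed for much of this difference. CUX2, a repressor expressed in female liver, and BCL6, a repressor expressed more in male liver, act on sex-biased genes in the same setting.

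The labelled sex and tissue were checked first. The male list held 29 peaks on the Y chromosome and the female list held 0. Of 20 hepatocyte identity genes, 19 had an H3K4me1 peak within 10 kb in each sex and 20 an H3K27ac peak in each sex. Over all protein-coding genes, 75.6% and 72.9% had an H3K4me1 peak and 61.5% and 68.1% an H3K27ac peak in the male and female lists. An H3K4me1 peak was found at 3 of 10 Kupffer cell and macrophage genes in each list, at 10 and 9 of 12 endothelial genes in male and female, at 8 and 6 of 11 stellate cell genes, at 5 and 3 of 7 cholangiocyte genes, at 4 and 2 of 8 lymphocyte genes, at 6 and 7 of 8 neuron genes and at 4 of 6 skeletal muscle genes in both. Several of these shares lie near those over all genes, and a peak near a gene does not show that the gene was expressed.

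As examples, stretches of 200 bases from peaks of a single sex are given here in mm9, read on the plus strand. They were chosen at genes that recur below. At each gene the widest single-sex peak was taken, among those on H3K27ac of that sex alone where there were any. Each stretch was placed on the motif match nearest the peak centre, or at the centre where the peak held no match. Capitals mark matches to the motifs TTCNNNGAA (STAT5), TGTTTAC (FOXA), CAAAGTCCA (HNF4A) or ATCAATA (ONECUT), searched on both strands, and a stretch without capitals holds none of these. The first 4 come from male-only peaks. At Prlr the widest male-only peak, chr15:10154090-10155100, is 1011 bp wide and lies in the gene. At Elovl3 a peak of 1448 bp, chr19:46198487-46199934, lies upstream, at C6 a peak of 272 bp, chr15:4676504-4676775, lies at the promoter, and at Cyp2d9 a peak of 476 bp, chr15:82284889-82285364, lies in an intron. These last 3 overlap H3K27ac in the male list and not in the female list, which follows from how they were chosen.
Prlr, male-only, chr15:10154590-10154789: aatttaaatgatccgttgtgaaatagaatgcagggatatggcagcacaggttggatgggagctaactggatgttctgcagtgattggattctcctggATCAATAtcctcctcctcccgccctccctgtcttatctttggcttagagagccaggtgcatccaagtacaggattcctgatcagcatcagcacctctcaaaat
Elovl3, male-only, chr19:46199111-46199310: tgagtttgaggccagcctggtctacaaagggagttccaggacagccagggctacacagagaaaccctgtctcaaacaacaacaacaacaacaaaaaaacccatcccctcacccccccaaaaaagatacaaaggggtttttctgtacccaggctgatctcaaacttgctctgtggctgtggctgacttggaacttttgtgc
C6, male-only, chr15:4676540-4676739: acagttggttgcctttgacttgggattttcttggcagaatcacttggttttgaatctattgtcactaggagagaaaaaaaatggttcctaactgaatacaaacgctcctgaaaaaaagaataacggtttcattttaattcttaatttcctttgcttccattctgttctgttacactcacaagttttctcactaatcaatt
Cyp2d9, male-only, chr15:82285027-82285226: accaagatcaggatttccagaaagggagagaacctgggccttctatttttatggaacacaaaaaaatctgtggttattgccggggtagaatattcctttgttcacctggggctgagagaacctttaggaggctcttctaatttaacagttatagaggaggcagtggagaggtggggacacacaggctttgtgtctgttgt

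The next 2 come from female-only peaks. At Cux2 the peak of 488 bp, chr5:122499278-122499765, lies beside a male-only peak that spans the start of the gene. At Sult1e1 the peak of 413 bp, chr5:88029413-88029825, lies upstream. Both overlap H3K27ac in the female list and not in the male list, which again follows from the choice.
Cux2, female-only, chr5:122499422-122499621: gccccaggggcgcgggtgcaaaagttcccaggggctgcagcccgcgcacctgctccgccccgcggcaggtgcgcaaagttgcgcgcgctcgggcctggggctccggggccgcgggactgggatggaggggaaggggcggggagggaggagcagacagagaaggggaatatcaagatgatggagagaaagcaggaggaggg
Sult1e1, female-only, chr5:88029413-88029612: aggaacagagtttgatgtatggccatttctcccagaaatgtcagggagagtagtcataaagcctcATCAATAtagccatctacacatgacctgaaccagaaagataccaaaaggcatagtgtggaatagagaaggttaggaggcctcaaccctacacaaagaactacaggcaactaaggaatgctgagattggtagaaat

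Most H3K4me1 peaks of control liver were found in both sexes, and those found in a single sex were mainly narrow. Of the male list, 26614 of 68838 peaks (38.7%, interval 38.3 to 39) were absent from the female list. Of the female list, 11269 of 54181 peaks (20.8%, interval 20.5 to 21.1) were absent from the male list. The sexes shared 42224 peaks counted in the male list and 42912 counted in the female list. Male-only peaks made up 70.3% of the peaks found in a single sex, and between 68.1% (chromosome 7) and 72.3% (chromosome 16) on each of the 19 autosomes. In bases, 53.2% of the male list lay inside the female list and 69% of the female list inside the male list.

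Single-sex peaks were narrower than shared peaks in both lists. The median width was 309 bp for male-only peaks and 308 bp for female-only peaks, against 558 bp for shared peaks in the male list and 487 bp in the female list. The longer male list also reached to narrower peaks, since 5% of its peaks were below 197 bp, against 241 bp in the female list. Among peaks below 250 bp, 70.7% of the male list and 45.4% of the female list were absent from the other list. At 500 to 599 bp these shares were 25.7% and 10.1%. In the widest class they were 2.36% of 2072 male peaks (interval 1.79 to 3.11) and 0.0988% of 1012 female peaks (interval 0.0174 to 0.558), the latter being a single peak. The male share exceeded the female share in each width class, and both fell with each step in width.

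**Figure D1:**
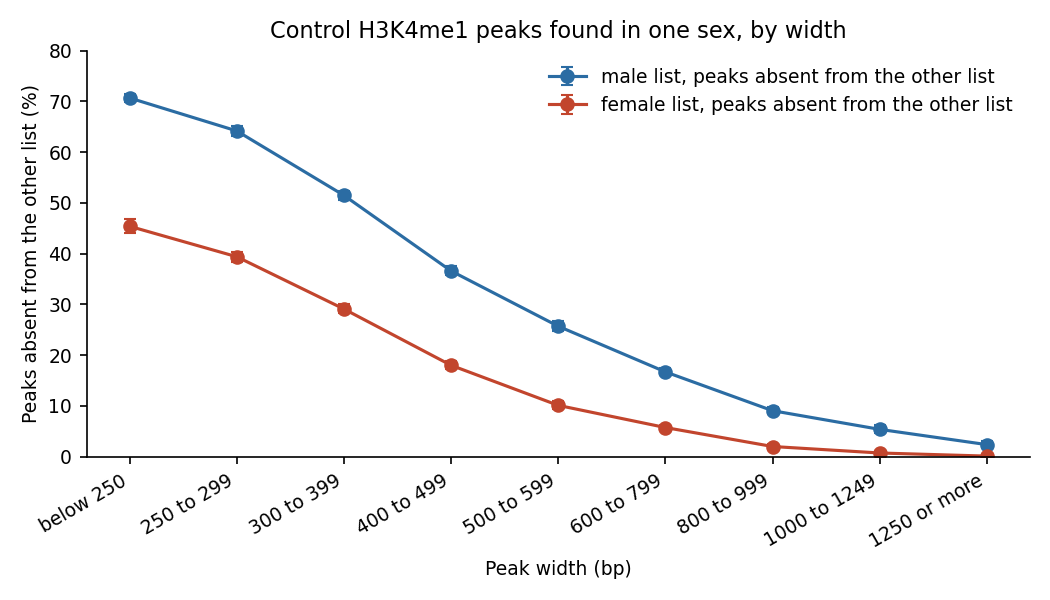
Share of control H3K4me1 peaks absent from the list of the other sex (y axis, percent) by peak width (x axis, bp), for the male list (blue) and the female list (red). Points are shares and bars Wilson 95% intervals. Both curves fall with width, from 70.7% to 2.36% in the male list and from 45.4% to 0.0988% in the female list.

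The excess of male-only peaks depended on how the list lengths were treated. With the 54181 widest peaks of each list, the female list stayed whole and the narrowest male peaks alone were dropped. Male-only counts, also those by gene, could then only fall or stay, and female-only counts only rise or stay. Under this setting 16500 male and 14998 female peaks had no counterpart, and the male share of single-sex peaks was 52.4%. With the 20000 widest it was 50.4%. In such a comparison of equal numbers the counts are bound to be close, because each unmatched peak in one list leaves room for another in the other list. When the 20000 widest peaks of each sex were instead set against the whole list of the other sex, 2173 male peaks (10.9%) and 975 female peaks (4.88%) had no counterpart, a male share of 69%. For the 5000 widest the numbers were 200 and 44, and for the 2000 widest 48 and 3. Here the male peaks were again set against the shorter list and the female peaks against the longer one, so that list length bears on these numbers too. The narrowest of the 20000 male peaks was 622 bp and the narrowest of the 20000 female peaks 526 bp. Depth is unknown here, and its part in list length and width was not tested.

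Many single-sex peaks had a peak of the other sex nearby. A female-list peak lay within 1 kb of 27.9% of male-only peaks, and a male-list peak within 1 kb of 35% of female-only peaks. Within 10 kb these shares were 68.6% and 76.2%. A peak of the opposite single-sex class lay within 1 kb of 7.65% of male-only and 17.3% of female-only peaks. The start of Cux2, described below, held such a pair.

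Single-sex peaks lay farther from promoters than shared peaks. The peak centre was within 1 kb of the transcription start of a protein-coding gene for 15.7% of male-only peaks (interval 15.3 to 16.2) and 12.4% of female-only peaks (interval 11.8 to 13.1), against 23.1% of shared peaks. In introns lay 46.3% of male-only, 49% of female-only and 39.1% of shared peaks. Outside genes the 3 classes were alike, with 34.4%, 34.8% and 34.4%. The median distance to the nearest start was 12339 bp for male-only, 13045 bp for female-only and 10242 bp for shared peaks. The difference from shared peaks thus lay between promoters and introns. The wide single-sex peaks were placed in the same way, with 13.6% of the 2173 male and 11.3% of the 975 female peaks within 1 kb of a start.

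H3K27ac, the mark of active enhancers and promoters, was found less often at single-sex than at shared H3K4me1 peaks. In the male H3K27ac list, 16.7% of male-only, 8.95% of female-only and 35.1% of shared H3K4me1 peaks overlapped a peak. In the female H3K27ac list, these shares were 30.1%, 21.1% and 55.4%. The female H3K27ac list was longer, with 48858 peaks against 28862. Cut to the 28862 widest, it overlapped 20.4% of male-only, 12.7% of female-only and 41.2% of shared peaks. Each class of H3K4me1 peaks therefore overlapped female H3K27ac more often than male H3K27ac, with and without the cut. The cut matched the number of H3K27ac peaks and not the bases they cover. Male-only H3K4me1 peaks overlapped H3K27ac more often than female-only H3K4me1 peaks did in each list.

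**Figure D2:**
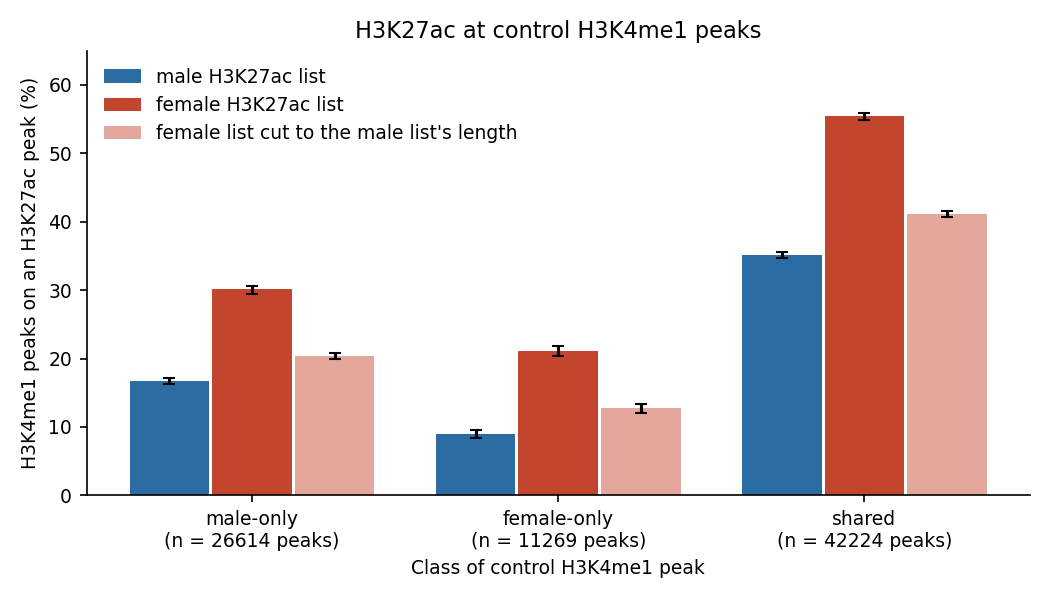
Share of H3K4me1 peaks that overlap an H3K27ac peak (y axis, percent) for male-only, female-only and shared H3K4me1 peaks (x axis, shared peaks counted in the male list). Bars stand for the male H3K27ac list (blue), the female list (red) and the 28862 widest peaks of the female list (light red), with Wilson 95% intervals. Shared peaks are highest in each list, and male-only peaks lie above female-only peaks in each.

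The order of the classes was the same within groups of equal width. Among H3K4me1 peaks of 500 to 799 bp, 23.9% of male-only, 11.2% of female-only and 38.9% of shared peaks overlapped male H3K27ac, and 37.3%, 26.2% and 58.5% overlapped female H3K27ac. Below 300 bp, the shares in the male list were 12.9%, 7.37% and 18%.

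Peaks in which both marks were found in the same single sex were few. Of male-only H3K4me1 peaks, 482 (1.81%) overlapped a male-only H3K27ac peak, whereas 3448 (13%) overlapped a female-only H3K27ac peak. Of female-only H3K4me1 peaks, 1319 (11.7%) overlapped a female-only and 117 (1.04%) a male-only H3K27ac peak. With the female H3K27ac list cut to the length of the male list, these became 1346 male-only (5.06%) and 500 female-only peaks (4.44%) on female-only H3K27ac. Shared H3K4me1 peaks overlapped male-only H3K27ac at 2.4% and female-only H3K27ac at 21.4%, or 9.46% with the cut list, so the greater overlap with female-only H3K27ac was found in all 3 classes. No H3K27ac peak of either sex was found at 67.8% of male-only and 77.5% of female-only peaks, against 42.1% of shared peaks. Most single-sex H3K4me1 peaks thus had H3K4me1 without a called H3K27ac peak.

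H3K27me3, the repressive mark deposited by EZH1 and EZH2, covered male-only H3K4me1 peaks less often than female-only ones. In the male regions lay 25.1% of male-only, 30.3% of female-only and 29.8% of shared peaks. In the female regions lay 21.5%, 25.2% and 25.2%. Among the widest peaks the gap was larger, with 23.8% of the 2173 male peaks (interval 22.1 to 25.7) and 35.9% of the 975 female peaks (interval 32.9 to 39) in male regions and 19.7% and 29.5% in female regions. The male regions covered 765 Mb and the female regions 630 Mb, which moves with the higher share of each class in the male regions. The gap between the classes had the same direction in both.

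The single-sex peaks recurred in E1/E2-KO liver far less often than the shared peaks did. Shared peaks were wider and were by definition found in both control lists, and the part of this in the contrast was not tested. The E1/E2-KO male H3K4me1 list (67161 peaks) overlapped 84.3% of shared, 43.7% of male-only and 40.8% of female-only control peaks. The E1/E2-KO female list (50922 peaks, from 3 livers in the sample records) overlapped 71.8%, 25.1% and 31.7%. In neither E1/E2-KO list were 48.3% of male-only and 47.2% of female-only peaks, against 9.44% of shared peaks. Of the wide single-sex peaks, 72% of the male and 65.7% of the female ones were in the E1/E2-KO male list, and 43.8% and 54.7% in the E1/E2-KO female list. The longer E1/E2-KO male list thus held more of each class, the female-only peaks included, but the ratio between the lists differed by class, since male-only peaks were the most unevenly held.

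Counted by gene, male-only peaks were spread widely and female-only excess was rare. Of 21418 protein-coding genes, 51.2% had a male-only peak within 10 kb of the gene span and 32.6% a female-only peak, while 75.6% had a peak of the male list and 72.9% one of the female list. More male-only than female-only peaks were found at 40.7% of genes and the reverse at 11.1%. A gene was set apart if it had at least 3 more peaks of one class than of the other, which held for 2201 genes with male-only excess (10.3%) and 112 genes with female-only excess (0.523%). With equal numbers of the widest peaks these became 689 and 462 genes, so the ratio between the directions moved with the number of peaks compared. The 12 genes with the largest male-only excess were long, spanning 197 to 4435 kb, and the part of gene length in their counts was not tested.

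The gene with the largest male-only excess was Gm20388, with 110 male-only and 45 female-only peaks. It is a gene model of 4435 kb that runs across many other genes, and the difference of male-only minus female-only peaks there was -3 with equal numbers of the widest peaks. The next was Arhgap26, which encodes a GTPase activating protein, with 28 male-only, 3 female-only and 50 shared peaks. Prlr, the prolactin receptor gene, had 26 male-only, 4 female-only and 8 shared peaks, and so stood out by having few shared ones. Lpp, a focal adhesion gene, had 25 male-only and 6 female-only peaks. Zbtb20, a zinc finger repressor gene, had 30 and 13, and Rora, a nuclear receptor gene, had 31 and 15. Astn2 had 16 male-only and 0 female-only peaks. Ptprg (24 and 7), Rbfox2 (21 and 5), Prkce (21 and 6), Ext1 (18 and 3) and Sox6 (20 and 5) completed the 12 genes. With equal numbers of the widest peaks, the male-only excess was 11 at Lpp, 9 at Prlr and Arhgap26, 7 at Astn2 and Ext1, 6 at Rbfox2 and Sox6, 5 at Prkce, 4 at Ptprg, 3 at Zbtb20 and 1 at Rora.

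Female-only excess was smaller in the full lists, and the genes named here spanned 16.8 to 606 kb. Cux2, the repressor gene expressed in female liver, had 11 female-only, 4 male-only and 8 shared peaks. Mtmr3, a phosphoinositide phosphatase gene, had 7 female-only and 0 male-only peaks. Esrrg, a nuclear receptor gene, had 13 female-only and 8 male-only peaks. Chst13 and Celf1 each had 6 female-only and 1 male-only peaks, Cox10 had 5 and 0, Myo5b had 9 and 5, Rin2 and Smyd3 each had 7 and 3, and Ppp1r9a had 6 and 2. With equal numbers of the widest peaks the difference of male-only minus female-only peaks was -9 at Cux2, -12 at Esrrg and -7 at Mtmr3. That setting drops male peaks alone, so a female-only excess could not shrink or turn under it.

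**Figure D3:**
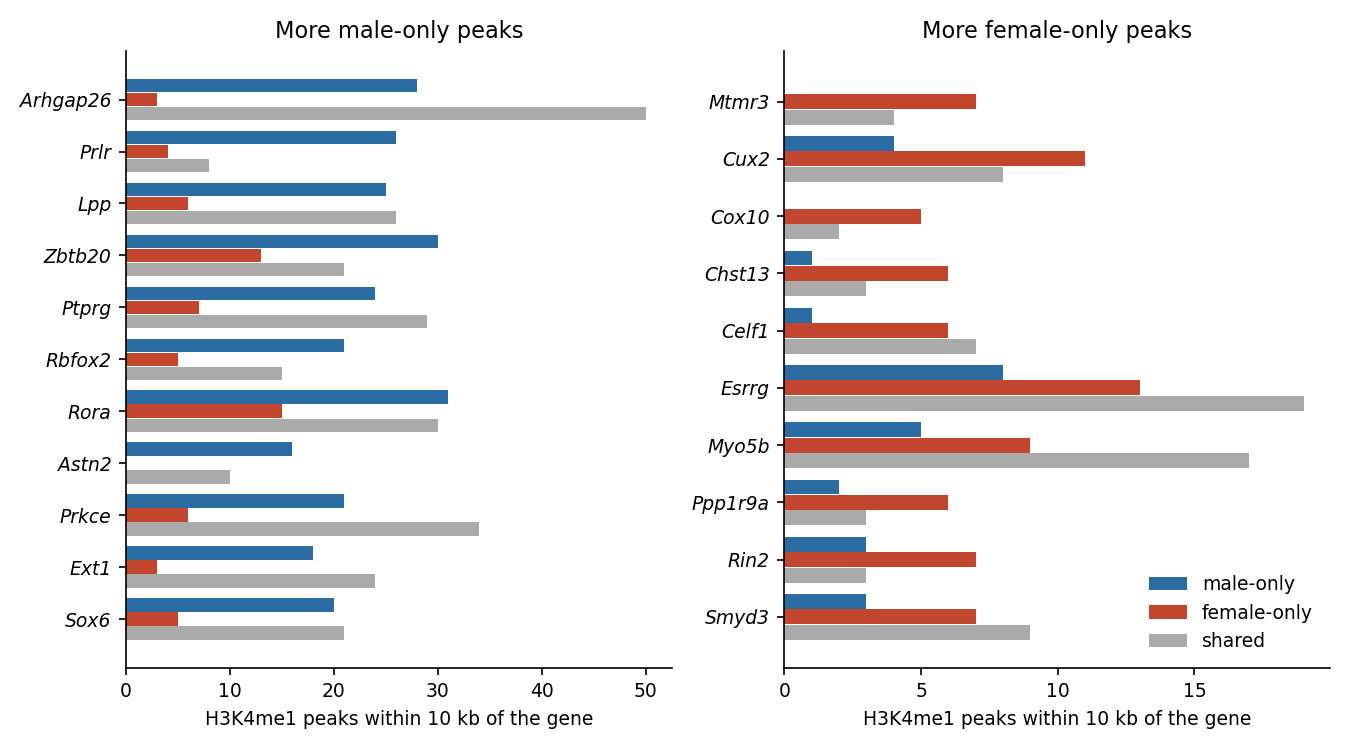
Number of control H3K4me1 peaks within 10 kb of the gene (x axis) at the genes with the largest male-only excess (left) and female-only excess (right). Bars give male-only (blue), female-only (red) and shared peaks (grey, counted in the male list). Gm20388, with 110 male-only and 45 female-only peaks, is left out of the left panel for scale, and the right panel shows 10 genes. Prlr has 26 male-only and 8 shared peaks, and Astn2, Mtmr3 and Cox10 have peaks of a single sex beside any shared ones.

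Among the 20000 widest peaks of each sex that were absent from the whole other list, 8.36% of genes had a male and 4.14% a female peak. Grm8, a glutamate receptor gene, had 5 male and 0 female peaks of this kind, Pard3b, a cell polarity gene, 4 and 0, Prkag2, which encodes a regulatory subunit of AMP-activated kinase, 3 and 0, and Zbtb20 4 and 1. Sox5 had 5 and 2, but with equal numbers of the widest peaks the difference over all its peaks turned to -4. Gm20388 had 7 and 2. In the female direction Esrrg came first, with 4 female and 1 male peaks, while Foxn3, Tbc1d1 and Eftud1 had 2 and 0. Cyp39a1, an oxysterol hydroxylase gene with female-biased RNA, and its neighbour Slc25a27 shared 2 wide female-only peaks and had 0 male ones. The full lists gave the opposite direction at Foxn3 (15 male-only and 6 female-only peaks), Tbc1d1 (7 and 3) and Eftud1 (3 and 2).

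At Prlr, chr15:10106993-10303504, the male-only peaks reached from 1949 bp to 202237 bp past the start of the gene. A run of 9 of them, from chr15:10168545 to 10214023, had no female-list peak between them. H3K27ac lay at 8 of the 26 male-only peaks in the male list and at 14 in the female list, and 6 overlapped a female-only H3K27ac peak, or 3 with the female H3K27ac list cut to the male list's length. The 4 female-only peaks lay at the gene start and 14206, 50313 and 51471 bp past it, and none of them overlapped H3K27ac. Prlr RNA is female-biased in the study's gene table. H3K27ac peaks at Prlr numbered 24 in the female and 13 in the male list, beside 48858 and 28862 over all autosomes. No H3K27me3 region of either sex lay on Prlr.

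At Cux2, chr5:122308396-122500111, the 11 female-only peaks were spread over the gene and the male-only peaks sat in its first part. Positions are given in bp along the gene from its start. The male-only peaks lay at -171, 24066, 30949 and 32510, and each overlapped female H3K27ac, while 1 overlapped male H3K27ac. The female-only peaks lay at -9148, 589, 6964, 33702, 41662, 48914, 72121, 78695, 105746, 132190 and 191305. Of these 11, 2 overlapped female H3K27ac and 0 male H3K27ac. H3K27me3 regions covered 100% of the gene in male and 30.5% in female liver. At the start itself the male-only peak of 785 bp and the female-only peak of 488 bp lay side by side, so both sexes had a peak there.

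**Figure D4:**
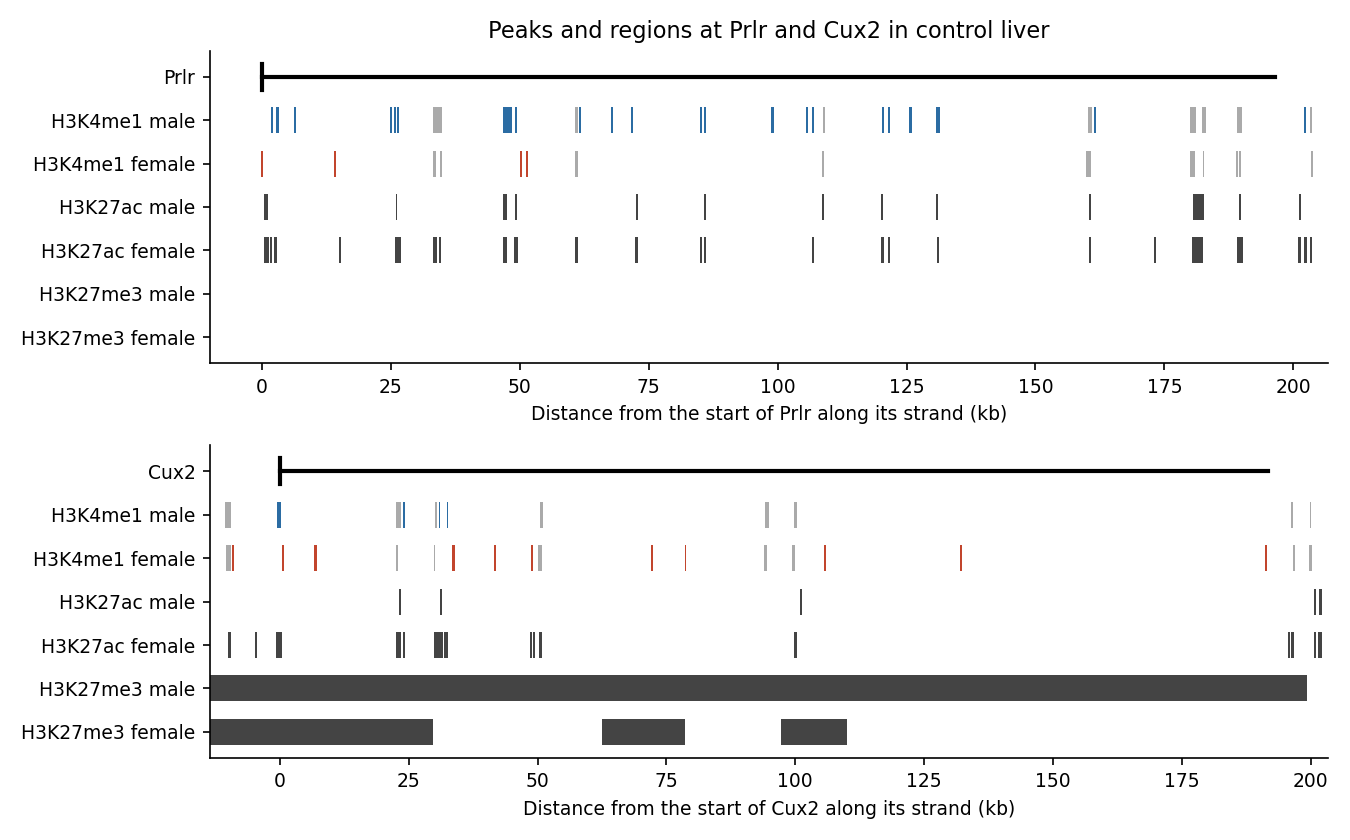
Peaks and regions at Prlr (top) and Cux2 (bottom), by distance from the gene's start along its strand (x axis, kb). The black line is the gene, with its start at 0. H3K4me1 peaks are coloured where found in a single sex (blue male-only, red female-only) and grey where shared, and H3K27ac peaks and H3K27me3 regions are dark. Peaks under 0.35 kb are drawn at that width. At Prlr 26 of the coloured peaks are male-only and 4 female-only, and at Cux2 4 are male-only and 11 female-only.

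Single-sex peaks also came in runs with no peak of the other list between them. The following loci were chosen after their values were seen. The longest male-only run had 11 peaks over 265 kb at Peli1, Vps54 and Ugp2, with no H3K27ac on any of them. Runs of 10 lay at Lima1, an actin-binding protein gene, over 40.2 kb, and at Astn2 over 551 kb. A run of 8 crossed the Cyp4a genes (fatty acid hydroxylases) from Cyp4a14 to Cyp4b1 over 175 kb. Male H3K27ac lay on 3 and female H3K27ac on 6 of these 8 peaks, and the RNA of Cyp4a14, Cyp4a10 and Cyp4a31 is female-biased in the study's table. A run of 9 crossed part of the Hoxc cluster of homeobox genes over 242 kb, with no H3K27ac. A female-only run of 5 lay at the sulfotransferase genes Sult1d1 and Sult1e1 over 49.3 kb, with female H3K27ac on 4 and male H3K27ac on 3 of the peaks. Runs of at least 5 numbered 332 in the male direction and 4 in the female direction, from 26614 and 11269 single-sex peaks. When equally many widest peaks were compared they numbered 76 and 36, and the longest run had 7 peaks in both directions.

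Of 26 male-biased liver genes, 7 had male-only and 1 female-only excess, and of 40 female-biased liver genes, 8 had male-only and 2 female-only excess, against 10.3% and 0.523% of all genes. With equal numbers of the widest peaks, 2 male-biased genes had male-only and 3 female-only excess, and 2 female-biased genes had each, against 3.22% and 2.16% of all genes. More male-only than female-only peaks were then found at 34.6% of the male-biased and 40% of the female-biased genes and the reverse at 30.8% and 20%, against 24.5% and 22.3% of all genes. Male-only peaks made up 71.1% of the single-sex peaks at the former and 69.5% at the latter, against 70.2% over all genes. In the male-biased list, Capn8, a calpain gene, had 7 male-only and 0 female-only peaks, Susd4 and Nat8 had 4 and 0, and Elovl3 (a fatty acid elongase gene), Cyp2d9 (a cytochrome P450 gene), C6 (a complement component gene) and Moxd1 had 3 and 0. This list was not taken from the study's table, in which Moxd1, Bcl6 and Cspg5 are not among the sex-biased genes. Egfr, the epidermal growth factor receptor gene, went the other way with 2 male-only and 5 female-only peaks. Among equally many widest peaks the difference was 5 at Capn8, 3 at Susd4, 2 at Nat8, Cyp2d9 and Moxd1, 1 at Elovl3, 0 at C6 and -5 at Egfr. At Cyp2d9, male H3K27ac alone lay on the intron peak shown above, and at Susd4 3 of the 4 male-only peaks lay on female H3K27ac and none on male H3K27ac.

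In the female-biased list, Sult2a6, a hydroxysteroid sulfotransferase gene, had 3 female-only and 0 male-only peaks, 1 of them on female-only H3K27ac. Reads from the near-identical Sult2a and Cyp2d gene copies may be shared out by the mapping, so their counts are uncertain. Cux2 was the other gene with female-only excess. Slco1a4, an organic anion transporter gene, had 5 male-only and 0 female-only peaks, Cyp17a1 (a steroid 17-hydroxylase gene) and Ccnd1 (cyclin D1) had 3 and 0, and Acss3 had 5 and 1. Esr1, the oestrogen receptor gene, had 14 male-only and 7 female-only peaks. Tox had 11 and 5, and the difference was -1 among equally many widest peaks. The difference was 0 at Acss3, 1 at Slco1a4 and Cyp17a1 and 2 at Ccnd1 and Esr1 under the same setting, and -4 at Sult2a6. At female-biased genes in the full lists, male-only H3K4me1 peaks were thus as common among single-sex peaks as elsewhere.

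Growth hormone signalling genes had male-only excess in 7 and female-only excess in 1 of 16, with 72.4% of single-sex peaks male-only, against 10.3% and 0.523% of all genes and a male share of 70.2%. Among equally many widest peaks, 2 of the 16 had male-only and 2 female-only excess, against 3.22% and 2.16% of all genes, while 62.5% had more male-only and 12.5% more female-only peaks, against 24.5% and 22.3%. Stat5b, which encodes the transcription factor downstream of the growth hormone receptor, and Igf1, a hormone gene that it induces, each had 7 male-only and 2 female-only peaks. Ghr, the growth hormone receptor gene, had 6 and 3, Jak2, its kinase, 4 and 1, Socs2, a feedback inhibitor, 4 and 0, and Igfals, a carrier protein gene, 4 and 1. The remaining gene with male-only excess was Prlr, and the one with female-only excess was Cux2. The excess was 1 at Igf1, Ghr and Socs2, 2 at Jak2 and Igfals and 4 at Stat5b with equal numbers.

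Hepatocyte identity genes had male-only excess in 6 of 20 and female-only excess in 0, with 80.7% of single-sex peaks male-only, against 10.3%, 0.523% and 70.2% over all genes. The counts were 5 and 0 with equal numbers of the widest peaks, against 3.22% and 2.16% of all genes. Onecut2 had 7 male-only and 0 female-only peaks, Nr5a2 had 7 and 1, Rxra 6 and 1 and Nr1h4 4 and 0, all of them transcription factor genes. Alb, the albumin gene, had 3 and 0. Its 3 male-only peaks lay on female H3K27ac, and 1 of them on male H3K27ac, so H3K27ac was called beside Alb in both sexes.

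Steroid and xenobiotic receptor genes had male-only excess in 10 of 15 and female-only excess in 0, against 10.3% and 0.523% of all genes. Thrb, a thyroid hormone receptor gene, had 18 male-only and 5 female-only peaks, followed by Ppard (6 and 2), Nr3c1, the glucocorticoid receptor gene (4 and 0), Nr1i2 and Rarb (4 and 1) and Ahr (3 and 0), beside Rora, Esr1 and Nr1h4 above. Circadian clock genes had the same counts, male-only excess in 10 of 15 and female-only excess in 0. Cry2 had 6 male-only and 0 female-only peaks, Per2 4 and 0, Per3, Dbp and Nfil3 3 and 0, Arntl 5 and 1, Hlf 6 and 2, and Npas2 and Clock 5 and 2. With equal numbers, male-only and female-only excess was found at 2 and 1 of the receptor genes and at 3 and 0 of the clock genes, against 3.22% and 2.16% of all genes. More male-only peaks were then found at 73.3% of the receptor and 80% of the clock genes and more female-only peaks at 13.3% and 20%, against 24.5% and 22.3% of all genes. In the full lists the clock genes held 77.9% and the receptor genes 72.5% male-only among their single-sex peaks, against 70.2% over all genes. Some of these genes are long, such as Rora with 734 kb and Thrb with 377 kb, and others short, such as Dbp with 5.07 kb. The part of gene length in the counts of these and the other gene lists was not tested.

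Among genes of other cells, male-only excess was found at 1 of 12 endothelial genes (Stab2, 3 male-only and 0 female-only peaks), 2 of 11 stellate cell genes (Hand2 with 3 and 0, Col1a1 with 5 and 0), 1 of 7 cholangiocyte genes (Sox9, 3 and 0), 2 of 8 lymphocyte genes (Cd4 with 5 and 0, Nkg7 with 3 and 0) and 0 of the 10 Kupffer cell, 8 neuron and 6 skeletal muscle genes, against 10.3% of all genes. Female-only excess was found at none of these. More female-only than male-only peaks were found at Kdr and Tie1 (endothelial, 0 male-only and 1 female-only), Acta2 (stellate cell, 0 and 2), Gad1 and Syt1 (neuron, 0 and 2 at the former and 3 and 5 at the latter) and Ttn (skeletal muscle, 0 and 1). Among equally many widest peaks, male-only excess was found at Cd4 alone in these lists, and female-only excess at 1 stellate cell and 1 neuron gene. No H3K27ac of either sex lay at Hand2 and Col1a1, and H3K27me3 covered 100% of both genes in both sexes. Whether cell composition had a part in the male-only peaks was not tested. Ezh1 had 3 male-only and 0 female-only peaks and Ezh2 had 2 of each.

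The peaks were also set against the genes with sex-biased RNA in the study's gene table, from which names and direction alone were taken. Of its symbols, 445 male-biased and 583 female-biased ones matched, giving 446 and 586 autosomal gene entries. Male-only peaks made up 70.8% of the single-sex peaks at male-biased genes (interval 68.5 to 73), 69.7% at female-biased genes (interval 67.4 to 71.9) and 70.2% at the remaining genes. Summed over genes, the balance of male-only and female-only peaks was thus alike in the 3 groups. Counted by gene, more male-only than female-only peaks were found at 65.7% of male-biased genes (interval 61.2 to 70), 53.9% of female-biased genes (interval 49.9 to 57.9) and 39.7% of the rest, and the reverse at 12.8%, 12.6% and 11%. Male-only excess of at least 3 was found at 24%, 17.6% and 9.77%. When equally many widest peaks were compared, more male-only peaks were found at male-biased and female-biased genes in 40.4% (interval 35.9 to 45) and 34.6% (interval 30.9 to 38.6) and more female-only peaks in 31.6% (interval 27.5 to 36.1) and 25.3% (interval 21.9 to 28.9), against 23.9% and 22% of the remaining genes. Excess of at least 3 was then found at 6.73% and 7.17% in the male-only direction and at 6.5% and 2.9% in the female-only direction, against 3.03% and 2.04% of the remaining genes, so the order of the male-only excess at male-biased and female-biased genes was not kept. Both kinds of sex-biased genes had more H3K4me1 peaks than other genes, with 3.33 and 2.63 shared peaks per gene against 2.03. They were also longer, with a median span of 26.2 kb and 23.8 kb against 15.1 kb, and the part of length in these counts by gene was not tested.

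Peaks with both marks male-only were found more often at male-biased than at female-biased genes. A male-only H3K4me1 peak on a male-only H3K27ac peak was found at 1.77% of all genes, at 34 of 446 male-biased genes (7.62%, interval 5.51 to 10.5), at 12 of 586 female-biased genes (2.05%, interval 1.18 to 3.54) and at 1.63% of the rest. The male-biased genes included Elovl3, C6, Cyp2d9, Capn8, Nox4 (an NADPH oxidase gene), Scara5 (a ferritin receptor gene), Fabp1 (the liver fatty acid binding protein gene), Phyh, Aox1, Slc22a28 and Rora. At Rora 1 male-only peak lay on male-only H3K27ac, whereas 8 male-only peaks and 2 female-only peaks lay on female-only H3K27ac. Male-only H3K27ac by itself was found at 9.9% of all genes, at 27.6% of male-biased, 13.7% of female-biased and 9.41% of other genes, so the H3K27ac part of the criterion showed the same order. Counted within the gene span alone, the both-mark shares were 5.16% and 1.37%, and within 50 kb 13.7% and 4.27%.

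Where both marks were female-only, no such order was seen. A female-only H3K4me1 peak on a female-only H3K27ac peak was found at 4.98% of all genes, at 57 male-biased genes (12.8%, interval 10 to 16.2), at 72 female-biased genes (12.3%, interval 9.87 to 15.2) and at 4.6% of the rest. With the female H3K27ac list cut to the length of the male list the shares were 6.5% and 6.48%, against 1.98% of all genes. Female-only H3K27ac by itself was found at 44.8% of all, 72% of male-biased and 75.9% of female-biased genes. The female-biased genes included Cux2, Sult2a6, A1bg, Trim24, Ntrk2, Nt5e, Tox, Esr1, Esrrg, Cyp39a1, Cyp2b10, Cd36 and Atp6v0d2, and the male-biased ones Cyp7b1 (an oxysterol hydroxylase gene), Egfr, C8a, Cyp2u1 and Lama3. A male-only H3K4me1 peak on a female-only H3K27ac peak was found at 11.9% of all genes, at 27.4% of male-biased and at 27.1% of female-biased genes. The reverse, a female-only H3K4me1 peak on a male-only H3K27ac peak, was found at 0.476% of all, 1.12% of male-biased and 0.341% of female-biased genes.

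**Figure D5:**
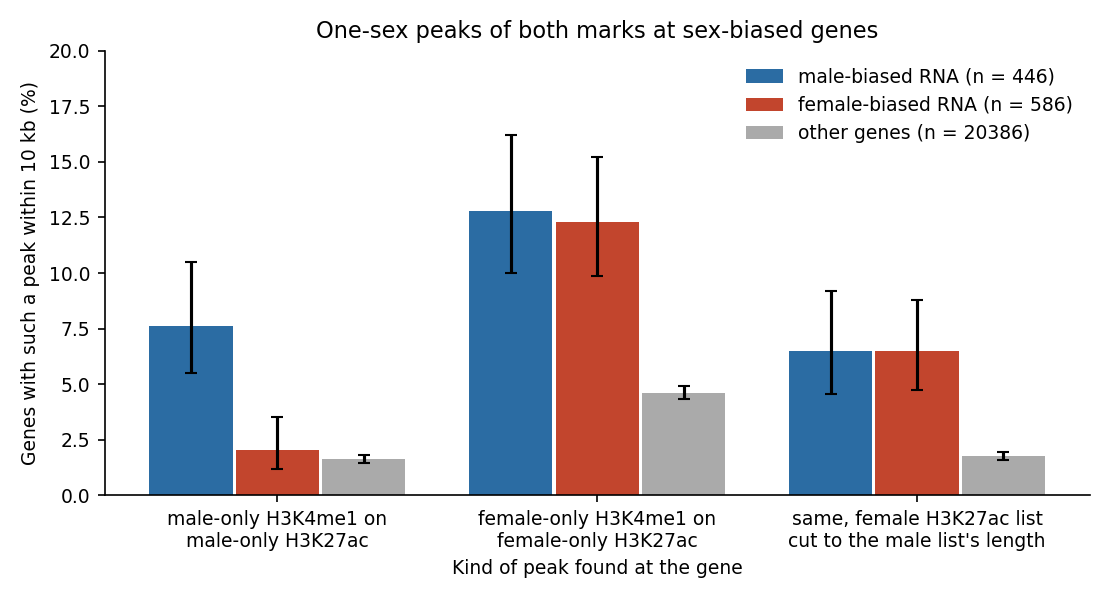
Share of genes (y axis, percent) with a single-sex H3K4me1 peak on a single-sex H3K27ac peak of the same sex within 10 kb (x axis: male-only, female-only, and female-only with the female H3K27ac list cut to the male list's length), for male-biased (blue, n = 446), female-biased (red, n = 586) and other genes (grey, n = 20386). Bars are shares with Wilson 95% intervals. Male-biased genes stand above female-biased genes for male-only peaks, 7.62% against 2.05%, and level with them for female-only peaks, 12.8% against 12.3%.

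Single-sex and shared peaks differed little in base composition. In windows of 300 bases at the peak centre, the median GC content was 47% for male-only, 47% for female-only and 48% for shared peaks, and the mean over all autosomal windows was 41.9%. The wide male-only peaks were lower, with a median of 44.3% against 47% for the wide female-only peaks. The STAT5 motif was in 9.62% of male-only, 8.74% of female-only and 9.1% of shared windows, against 11% of all 7978600 autosomal windows. The FOXA motif was in 5.28%, 5.48% and 5.4%, against 4.48%, and the HNF4A motif in 0.951%, 1.02% and 1.11%, against 0.39%. Over all widths the classes were thus close to each other for these 3 motifs. Among the wide peaks, the STAT5 motif was in 11.4% of male-only windows (interval 10.1 to 12.8) and 7.6% of female-only windows (interval 6.1 to 9.43). Within bands of GC content, also taken after the data were seen, these shares were 14.7% and 10.2% below 40%, 12% and 9.91% from 40% to 45%, 11.2% and 8.33% from 45% to 50% and 7.39% and 4.31% above, with overlapping intervals in each band. Over all widths, the STAT5 motif below 40% GC was in 12.8% of male-only, 11.2% of female-only and 12.7% of shared windows, against 13.7% of all windows. From 40% to 45% these shares were 11%, 10.2% and 11.1%, against 10.8%. From 45% to 50% they were 9.78%, 8.7% and 9.73%, against 8.78%, and at 50% or more 7.21%, 6.87% and 6.57%, against 6.78%. The order against all windows thus differed between bands. The FOXA motif was in 6.21% and 4.93% and the HNF4A motif in 1.52% and 1.23% of the wide male-only and female-only windows, with overlapping intervals. A match to such letters is not evidence that the factor was bound.

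The ONECUT motif, ATCAATA, was more frequent in male-only than in female-only and shared windows when GC content was not considered. It was in 4.38% of male-only windows (interval 4.14 to 4.63), 3.46% of female-only windows (interval 3.14 to 3.81) and 3.46% of shared windows, against 4.68% of all windows. In the wide male-only peaks it was in 7.41% (interval 6.38 to 8.59) and in the wide female-only peaks in 4.93% (interval 3.74 to 6.47). Because the motif is rich in A and T, the shares were also taken within bands of GC content, a step chosen after the data were seen. At a GC content below 40% they were 15.1% in wide male-only (interval 12.3 to 18.4), 11% in wide female-only (interval 6.68 to 17.7), 7.73% in shared and 7.47% in all windows. From 40% to 45% they were 8.39%, 5.86%, 5.14% and 4.02%, and from 45% to 50% they were 4.63%, 4%, 3.32% and 2.46%. At 50% or more they were 1.14%, 2.77%, 1.46% and 1.14%. The intervals of the wide male-only and wide female-only peaks overlapped in each band. Over all widths and below 40% GC, the motif was in 11.2% of male-only windows (interval 10.2 to 12.3). This was above the 8.45% of female-only (interval 7.07 to 10.1) and 7.73% of shared windows (interval 6.97 to 8.55). From 40% to 45% GC it was in 6.1% (interval 5.54 to 6.71), 4.75% (interval 4 to 5.63) and 5.14% (interval 4.71 to 5.61). From 45% to 50% GC the shares were 3.56%, 2.95% and 3.32%, and at 50% or more 1.09%, 1.27% and 1.46%. In each of these higher bands the male-only interval overlapped those of the female-only and shared windows. The Prlr stretch above, from a wide male-only peak, and the Sult1e1 stretch, from a female-only peak, each hold a match of this kind because they were placed on it.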

How the data were processed

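Chromatin from 7 week old livers was profiled by ChIP-seq. The authors sequenced 50 nt paired-end reads, joined those from all livers in each group, mapped the result to mm9 with Bowtie2 (version 2.3.2) and called H3K4me1 and H3K27ac peaks with MACS2 (version 2.1.1, default parameters) and H3K27me3 regions with SICER (version 1.1). The deposited lists give positions without score or count, so depth is unknown.

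Overlap meant at least 1 shared bp, and lists were also compared by equal numbers of the widest peaks. Genes were the 21418 autosomal protein-coding entries of GENCODE release M1, on NCBIM37, which is mm9 and contains every peak, with spans extended by 10 kb. Named genes were the 12 per direction with the largest difference, the 6 per direction among the 20000 widest peaks, members of fixed gene lists with a difference of at least 3, and Ezh1 and Ezh2. Some genes of the rule are not reported here, though list totals count them. Loci in runs, Sult1e1 and genes with both marks were named after their values were seen. The direction of RNA sex bias came from the study's gene table, by name and direction only. The members and lists were chosen with earlier results of these data known. Python 3.11.15, NumPy 2.4.6, SciPy 1.17.1 and matplotlib 3.10.9 were used. The overlap step, tested on simulated data, found the 300 removed and 200 added peaks.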

Additional observations from a re-analysis of the deposited data

How the results depend on the processing

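The share of the male list absent from the female list (38.7%) was 48.9% when 50% of a peak had to be covered, 34.2% after peaks within 1 kb were merged, 30.5% with equal numbers of the widest peaks, 38% with 20000, 47.4% with 10000 and 43.6% for peaks of at least 500 bp. The female share (20.8%) was 30%, 19.3%, 27.7%, 37.4%, 47.3% and 25.4%. The male share of single-sex peaks (70.3%) was 67.4%, 68.3%, 52.4%, 50.4%, 50.1% and 69.3%. Against the whole other list, an alternative chosen after seeing the data, the 20000 widest gave 10.9%, 4.88% and 69%. Genes with male-only excess (2201) numbered 1265 for the gene span, 5773 within 50 kb, 689 with equal numbers and 1181 after merging, and those with female-only excess (112) 70, 282, 462 and 59.

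With H3K27ac counted within 1 kb, male-only, female-only and shared peaks had 32.6%, 23.8% and 48.6% in the male list and 47.1%, 39.9% and 67.3% in the female list. With equal numbers of the widest H3K4me1 peaks these were 19.3%, 11.4% and 37.2%, and 33%, 25.2% and 57.8%. With equal numbers of the widest H3K27ac peaks the female list gave 20.4%, 12.7% and 41.2%. Within 3 kb of a start lay 27.5%, 24.7% and 34.6%. For genes with sex-biased RNA, settings chosen after seeing the data gave both marks male-only at 5.16% of male-biased genes for the gene span, and at 13.7% of male-biased and 4.27% of female-biased genes within 50 kb. Both marks female-only were at 9.42% and 9.39% for the span, 22.6% and 21.8% within 50 kb, and 6.5% and 6.48% with equal numbers of H3K27ac peaks. The difference of male-only minus female-only peaks turned to -1 at Tox, -4 at Sox5 and -3 at Gm20388 with equal numbers of the widest peaks. That setting drops the narrowest male peaks and no female peak, so a difference could move only toward the female-only direction. Of 425 values at 85 named genes under the alternatives, 296 stayed within 1.5 times, 126 moved by more than that without turning, and 3 turned. The counts of runs, by gene list and by RNA bias with equal numbers of the widest peaks, and the motif shares by GC content, were also chosen after seeing the data. No paired analysis was possible because the livers of a group were joined before peaks were called, and for the same reason no liver could be left out.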

Other observations

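On the X chromosome the control male H3K4me1 list held 930 peaks and the female list 617. Of these, 580 were male-only and 268 female-only, a male share of 68.4% of single-sex peaks. On the Y chromosome the male list held 29 peaks.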
